A study of Mus musculus with 6 samples.

Results

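STRAP peaks in noncoding exons were studied by enhanced crosslinking and immunoprecipitation (eCLIP), in which RNA crosslinked to the protein by ultraviolet light is pulled down with an antibody and sequenced. STRAP, a WD40 repeat protein, was pulled down from wild-type C57BL/6 embryos, taken as pools of embryos, at prenatal day 9.5 per the labels. A figure legend of the study gives an earlier stage for the pooled embryos. The other source was wild-type C57BL/6 embryoid bodies (EBs) of 9 days. These are aggregates grown from embryonic stem cells and were kept in N2B27 medium with bFGF. Each tissue had 2 eCLIP libraries and 1 size-matched input library, made from lysate that did not go through the pull-down. A peak counted as a noncoding exon peak when its summit lay in an exon of a transcript without coding sequence, in no coding exon or UTR (mm10, Gencode M21 basic), and outside genes of type snRNA, snoRNA, scaRNA, rRNA and misc_RNA. The rule used position and no measured value. It kept 129 of the 5969 peaks of the 4 eCLIP lists, in 77 genes. The embryo libraries held 24 (eCLIP-1) and 28 (eCLIP-2) of them and the EB libraries 38 (eCLIP-1) and 39 (eCLIP-2), and the inputs held 42 (embryo) and 38 (EB) peaks of the same class. Below, 4 values given together stand in the order embryo eCLIP-1, embryo eCLIP-2, EB eCLIP-1, EB eCLIP-2, and 2 input values in the order embryo, EB.

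Long noncoding RNAs are transcripts without a known open reading frame that work as RNA, and many stay in the nucleus. Malat1 gathers in nuclear speckles, the bodies where splicing factors collect. H19 and Meg3 are imprinted genes expressed from the maternal chromosome, and Tsix is transcribed antisense to Xist, the RNA that silences an X chromosome. Rmrp and Rpph1 are the RNA parts of the enzymes RNase MRP and RNase P, which cut ribosomal and transfer RNA precursors. A processed pseudogene is a copy of an mRNA that was reverse transcribed into the genome and so lacks the introns of its parent gene.

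The members were not mostly long noncoding RNAs. Of the 129 peaks, 39 lay in 21 genes of long noncoding type, 49 in 38 pseudogenes, 22 in 11 genes of miRNA type, 11 in 5 genes of type TEC, which the annotation holds as awaiting experimental proof, 4 in the ribozyme gene Rpph1 and 4 in mt-Rnr1, the small ribosomal RNA of the mitochondrion. By tags, which are reads left after filtering and counted within a peak, the order differed. The peaks with their summit in mt-Rnr1, which run on over other mitochondrial genes, held 57.4% of the 12148 tags. The long noncoding genes held 25.7%, the miRNA type 11.9% and the pseudogenes 1.98%. The median pseudogene peak held 4 tags, and 52 of the 129 peaks held 3 or 4. The inputs also held pseudogene peaks, 14 and 2.

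**Figure D1:**
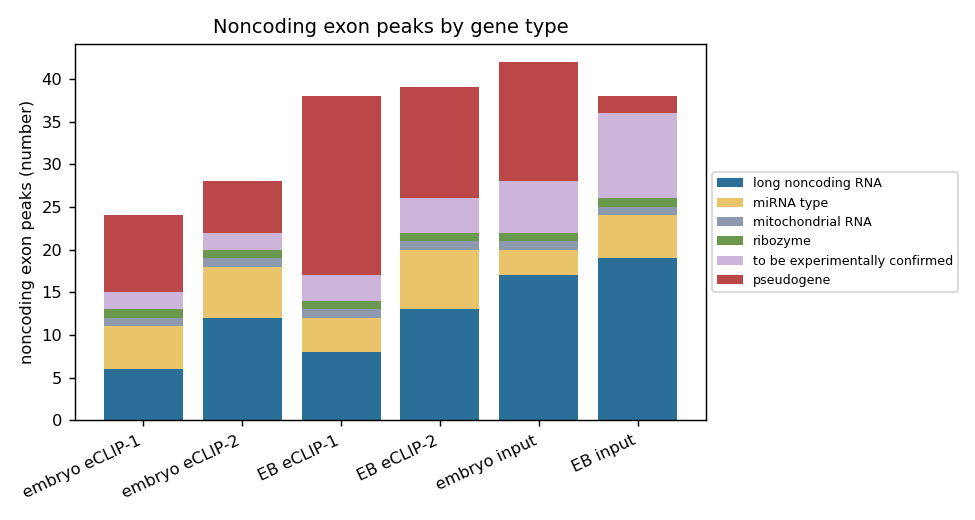
Number of noncoding exon peaks in each of the 6 libraries, with the bar divided by the gene type of the annotation. Pseudogenes made up 9 of 24, 6 of 28, 21 of 38 and 13 of 39 peaks in the eCLIP libraries, 14 of 42 in the embryo input and 2 of 38 in the EB input.

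The sequences below carry the findings that follow. They were read from GRCm38.p6 on the strand of the gene, since the deposited lists give no strand. H19 is shown over the summits of its 3 peaks (chr7:142578070-142578099, minus strand), with each summit base in capitals, and Malat1 at the summit of each library (chr19, minus strand, between 5800239 and 5801724), with GAGGAG in capitals.
H19: aaActggggaagatgggaGagctggagGag
Malat1, embryo eCLIP-1: tGAGGAGccagcagcagcagtgcatggtga
Malat1, EB eCLIP-2: ggactGAGGAGccagcagcagcagtgcatg
Malat1, embryo eCLIP-2: ttgacacactgggttagagaaggcgtgtac
Malat1, EB eCLIP-1: aggcaaagaagataagattgaggccaaaag
Lncenc1 is shown by the 22-base unit of its tandem repeat (chr13:97495388-97495409, plus strand), with the commonest 12-base word of its peaks in capitals.
Lncenc1 unit: CAGCATCAGCATcactgtgcac
Of the genes of miRNA type, 6 shared a run of 13 bases, given in capitals within 30 bases of 3 of them (chr16:11144151-11144180, plus; chr9:56223716-56223745, minus; chr1:167340370-167340399, minus).
Gm23935: agccgttcGTCTTGGGAAACGgggtgcggc
Gm24270: agccgttcGTCTTGGGAAACGgggtgcggc
Gm25911: gagccgttGTCTTGGGAAACGgggtgcggc
Last, a pseudogene summit is shown above the same stretch of the gene it copies, with the letters that differ in capitals (Gm12346 at chr11:77294452-77294481, plus, and Hsp90aa1 at chr12:110694021-110694050, minus; Gm8355 at chr10:14745775-14745804, minus, and Hspa8 at chr9:40804340-40804369, plus).
Gm12346: cgattgggaagaacacttggcagtaaagCA
Hsp90aa1: cgattgggaagaacacttggcagtaaagGT
Gm8355: agatcaccatcaccaatgacaagggCCGCt
Hspa8: agatcaccatcaccaatgacaagggTAAGt

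The libraries differed in depth and in one setting of the peak caller. The eCLIP libraries held 136935, 185125, 165566 and 228422 filtered tags, against 6289516 and 6825190 in the embryo and EB inputs. The fragment size was 200 bases in every library except EB eCLIP-2, where it was 76. At most 1 tag was kept per position, so a short and abundant RNA cannot gain tags in proportion to its amount. The input labels went against the eCLIP libraries. Of the 159 regions held by both embryo eCLIP libraries and by no EB eCLIP library, 7 lay on a peak of the library labelled embryo input and 17 on one of the library labelled EB input. Of the 225 regions of the opposite kind, 11 lay on the library labelled embryo input and 4 on the library labelled EB input. Comparisons with the input of 1 tissue are therefore also given with the inputs exchanged.

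Malat1 held more tags than any other long noncoding gene in each of the 4 eCLIP libraries. Its peak held 307, 366, 474 and 459 tags, or 224, 198, 286 and 201 per 100000 library tags. The embryo and EB values overlapped. The inputs held 97 tags (embryo) and 65 tags (EB), or 1.54 and 0.952 per 100000. The eCLIP peaks were 6771, 6738, 6991 and 5957 bases long. In 3 of the 4 libraries they began just before the 5′ end of the gene, in EB eCLIP-2 at base 728, and they ended at bases 6643, 6643, 6867 and 6684 of its 6983. The input peaks ended at 2202 and 2564 bases. The deposited fold enrichment, for which the study's methods name a control and the list headers name none, was 3.42 to 4.69. It was under the 5-fold used here as an alternative limit. The study's methods also asked for more than 5-fold over the input in a high-confidence peak. The summits stood at 1404, 2419, 963 and 1400 bases. Those of embryo eCLIP-1 and EB eCLIP-2, both beside the GAGGAG printed above, were 4 bases apart. The fragment size was 200 bases in the first of these libraries and 76 in the second, which places their summits 62 bases differently. The closeness of the 2 summits therefore does not show a shared site.

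H19 held its large peaks in the embryo eCLIP libraries. Its tags were 187 and 204 in the embryo, no peak was called in EB eCLIP-1, and EB eCLIP-2 held 4 tags, or 137, 110 and 1.75 per 100000 in the libraries with a peak. The embryo peaks began before the 5′ end of the gene and ended at positions 2612 and 2624, counted from the first base of its 2615. All 3 summits nevertheless lay in the first exon, at bases 72, 63 and 47 of the gene. In the inputs the pattern was opposite: the library labelled EB input held an H19 peak of 108 tags with its summit at base 915, and the library labelled embryo input held none. A missing peak is not a count of 0, since a called eCLIP peak could hold as few as 3 tags.

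Meg3 was the other imprinted RNA with its tags in the embryo. It held 1 member peak of 20 tags and 3 of 9, 12 and 11 tags in the embryo libraries, and 1 of 5 tags in EB eCLIP-2 alone of the EB libraries. No input peak lay on any of them. The region that both embryo libraries held (chr12:109558090-109558385, mm10) had its summit in an exon in embryo eCLIP-2 (12 tags) and in EB eCLIP-2 (5 tags), and in an intron in embryo eCLIP-1, where it held 10 tags. The peaks of 20, 9 and 11 tags each appeared in 1 library.

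**Figure D2:**
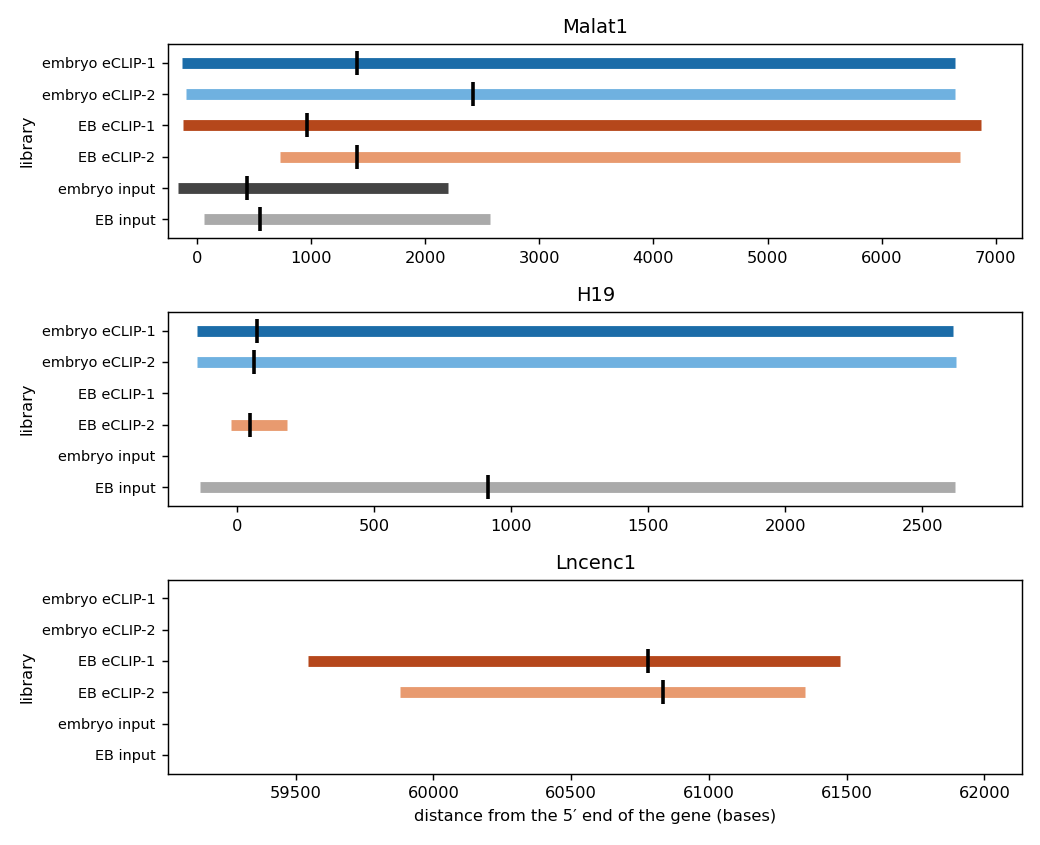
Extent of the noncoding exon peaks of Malat1, H19 and Lncenc1 in each library, as the distance from the 5′ end of the gene in bases, with the summit as a black mark. The eCLIP peaks of Malat1 ended at 6643 bases or later and the input peaks at 2202 and 2564, H19 was covered in both embryo eCLIP libraries and in the library labelled EB input, and Lncenc1 held peaks in the EB eCLIP libraries alone.

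Lncenc1, a long noncoding RNA of mouse embryonic stem cells, was the counterpart in EBs. It held 299 and 335 tags in the EB eCLIP libraries, or 181 and 147 per 100000, and no peak in either embryo eCLIP library or either input. The deposited folds were 18.8 and 23.2, and the 2 peaks were 1932 and 1473 bases long. Both summits lay in the third of 3 exons, inside a run of 430 bases in which the 12-base word printed above occurred 19 times, 17 of the steps between neighbouring copies being 22 bases. The window of 100 bases around the summit gave 12 alignments to the genome for EB eCLIP-1 and 8 for EB eCLIP-2 (95% identity over 90% of the window). These counts include the place itself, and several alignments can lie within the same repeat. Whether any lay outside Lncenc1 was not tested. Reads from such a repeat cannot be assigned to 1 copy.

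Tsix and Platr14 were also held by both EB libraries and by neither embryo library nor an input. Tsix held 14 tags in each, in EB eCLIP-2 as peaks of 9 and 5 tags, with summits in the first exon of the transcript used, 17090 to 17636 bases from the start of the gene. Platr14, a noncoding transcript named from its link to pluripotency, held 8 and 6 tags. Firre, a noncoding RNA transcribed from the X chromosome, held 1 peak of 5 tags in EB eCLIP-1. These counts are small, and with 2 libraries against 2 an exact permutation over libraries cannot go below p = 0.333, so no difference between embryos and EBs was tested.

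The RNase RNAs had a peak in all 6 libraries. Rmrp held 54, 71, 58 and 74 tags, or 39.4, 38.4, 35.0 and 32.4 per 100000, and its inputs held 106 (embryo) and 77 (EB). Rpph1 held 35, 44, 50 and 62 tags in the same order, or 25.6, 23.8, 30.2 and 27.1 per 100000, and its inputs held 125 and 102. The summits of Rmrp lay at bases 85 to 96 of its 281 in the eCLIP libraries, and those of Rpph1 at bases 66 to 142 of its 319. The Rpph1 summit windows of embryo eCLIP-2 and EB eCLIP-2 also matched an mRNA of Ccnb1ip1 at 100% identity. Neither library had a peak with its summit in Ccnb1ip1. Per 100000 tags, Rmrp was lowest in the EB libraries and Rpph1 in the embryo libraries, and in both genes the 2 tissues did not overlap. Before scaling, the Rmrp tags of the 2 tissues overlapped, and those of Rpph1 did not. With at most 1 tag kept per position, tags on such short RNAs need not grow with depth. The scaled values are therefore no measure of a tissue difference.

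The TEC genes AA474408 and Gm37194 were also found in every library. AA474408 held 37 and 42 tags in the embryo eCLIP libraries and 20 and 18 in the EB libraries, or 27.0, 22.7, 12.1 and 7.88 per 100000, so that the embryo values lay above the EB values, against 25 and 27 tags in the inputs. Gm37194 held 10, 17, 9 and 6 tags, with 35 and 28 in the inputs. The summits of AA474408 lay within 25 bases of each other in the eCLIP libraries, between 1463 and 1488 bases from its start.

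The peak named for mt-Rnr1 was not confined to that gene. In each eCLIP library a single peak began before mt-Rnr1 on the mitochondrial chromosome, ran on to position 5017 or later, counted from the start of mt-Rnr1, and held 1617, 1825, 1735 and 1793 tags, or 1181, 986, 1048 and 785 per 100000. The summit lay between bases 377 and 505 of the gene's 955. The embryo input held 4309 tags under a summit in mt-Rnr1, and the EB input 3265 under a summit in the neighbouring large ribosomal RNA gene, mt-Rnr2. These peaks therefore cover several mitochondrial genes, and their tags are not a level of mt-Rnr1.

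**Figure D3:**
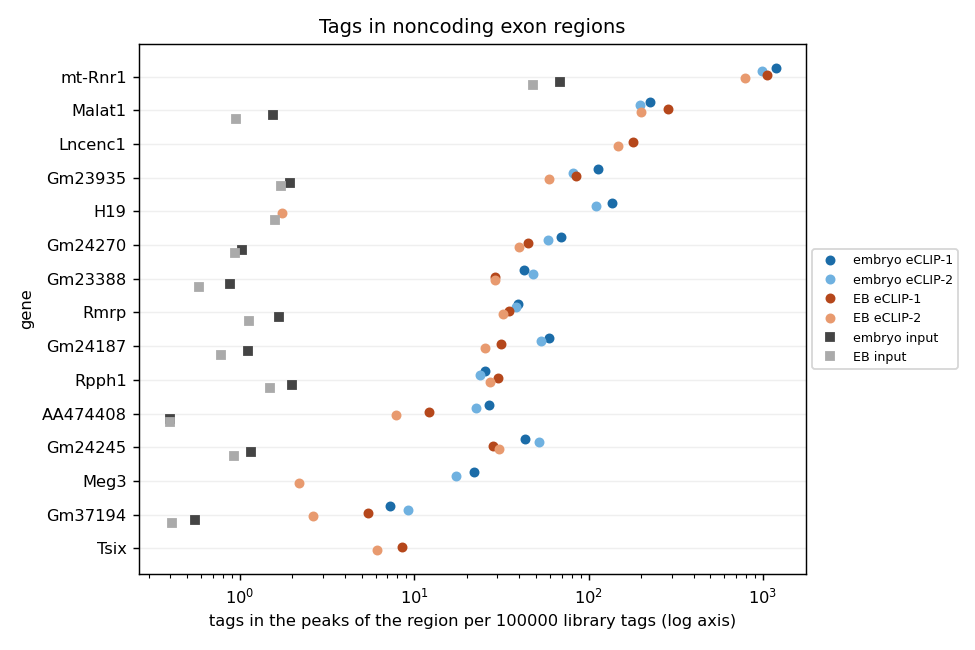
Tags in the peaks of noncoding exon regions per 100000 library tags (log axis) for the 12 genes with the most member tags and for Meg3, Gm37194 and Tsix, with circles for eCLIP and squares for input libraries. A library without a mark had no peak there. Lncenc1 and Tsix have marks of the EB eCLIP libraries alone, and Malat1, at 198 to 286 in eCLIP, lies at 1.54 and 0.952 in the inputs.

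The 6 genes of miRNA type with the shared 13 bases (Gm23388, Gm23935, Gm24187, Gm24245, Gm24270 and Gm25911), each 56 or 57 bases long, were found in every library. All 6 places held a peak in all 4 eCLIP libraries, of 47 to 156 tags, and in both inputs, of 40 to 122. Over the 6 places the tags summed to 504 and 619 in the embryo eCLIP libraries and 408 and 477 in the EB libraries, or 368, 334, 246 and 209 per 100000, and to 448 and 388 in the embryo and EB inputs. The embryo sums lay above the EB sums per 100000 tags. The class of these peaks was less steady than their tags: the summit fell inside the short gene at 4 of 6 places in embryo eCLIP-1, embryo eCLIP-2 and EB eCLIP-1, at 3 of 6 in EB eCLIP-2, and at 2 of 6 in each input. Up to 5 places of the genome matched a summit window of this group, so reads may be shared between them. The shared bases were not compared with ribosomal RNA, for which no reference sequence was used here. Mir6236 and Mir6240, of the same annotated type but without the 13 bases, also had peaks in all 6 libraries, of 60, 61, 56 and 59 and of 17, 22, 12 and 8 eCLIP tags. Mir6236 had 89 and 99 input tags and Mir6240 54 and 42.

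Gm15564 showed the same instability of class. Its region held 84, 99, 55 and 61 tags in the 4 eCLIP libraries, but only the summit of EB eCLIP-2 lay in the noncoding exon, the others being in an intron of Kpna1. EB eCLIP-2 was the library with a fragment size of 76 bases in place of 200. Gm24245, Gm25911 and Mir6236 also had a member summit in EB eCLIP-2 alone, and Gm23935, Gm24187 and Gm24270 in all eCLIP libraries but that one. The effect of the fragment size on the class of these peaks was not tested. Its window matched an mRNA of Lars2 at 98.0% identity. Over all 82 regions that hold a member, 30 peaks had their own summit elsewhere, 18 between genes, 8 in introns and 4 in small RNA genes.

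Most eCLIP peaks in pseudogenes matched an mRNA. Of the 49 eCLIP peaks in pseudogenes, 45 matched an mRNA of another, protein-coding gene over their window of 100 bases. A match needed at least 90% identity over at least 90% of the window, and 13 of the 45 were identical to the mRNA. All 45 matched on the strand of the mRNA, but each window was read on the annotated strand of the pseudogene. The match therefore does not give the strand of the tags. Of the 16 input pseudogene peaks, 6 matched. The share over all eCLIP peaks of any class was 4.89%, and over all input peaks 4.92%. A processed pseudogene is a copy of an mRNA by definition, and a match of a gene to its own mRNA was not counted. These shares are therefore no background for the pseudogenes and show no enrichment. The 45 peaks lay in 35 pseudogenes and matched 24 genes, of which 11 were matched by more than 1 peak. In 34 of the 45 cases a peak of the same library had its summit in the matched gene, and in none of the 6 input cases did one. Over all classes this held for 99 of 292 matched eCLIP peaks and 18 of 235 matched input peaks. A peak that reached the matched gene with its summit elsewhere was not counted. Genes matched in the embryo input included mt-Co1, mt-Cytb and mt-Nd5, and its long mitochondrial peak had its summit in mt-Rnr1. A pseudogene window matched a median of 4 places in the genome, and a long noncoding window a median of 1.

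The genes matched by more than 2 peaks were Hsp90aa1, Set, Eef1a1, Hspa8 and Rps24. Hsp90aa1, a cytosolic chaperone, was matched by 7 peaks in 4 pseudogenes, Gm12346, Gm5511, Gm5844 and Gm11910, all of them in EB libraries. Gm12346 held 14 and 10 tags there, identical to Hsp90aa1 over the window in both. Set, a histone chaperone, was matched by 4 peaks in BC085271, Gm5789 and Gm9531, the translation factor Eef1a1 by 3 peaks, and the chaperone Hspa8 by 3 peaks in Gm7232, Gm8326 and Gm8355. Nap1l1, another histone chaperone, was matched by both peaks of Gm4204 (7 and 6 tags) in embryo eCLIP-2, the larger of which lay in a region also held by embryo eCLIP-1. Ribosomal protein genes among the 24 included Rpl4, Rpl5, Rpl12, Rpl18, Rps24, Rps25 and Rps29, and the zinc finger genes were Zfp992, Zfp808 and Zfp933, matched by 1 peak each. Hmgb1, a chromatin protein, and Tpt1 were matched by 2 peaks each. Of the 45 matched stretches, 21 (46.7%) crossed a junction between exons of the mRNA, as in the pairs printed above, where 28 of the 30 Hsp90aa1 bases and 24 of the 30 Hspa8 bases are exonic and the rest lie outside the exons. Among the 2153 eCLIP peaks in coding exons, the window of 830 (38.6%) left the exon. Whether the tags came from the pseudogene or from the matched mRNA was not tested, since the lists hold no reads.

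The remaining named genes held few tags. Of the hosts of small nucleolar RNAs, Gas5 held 10 tags in embryo eCLIP-1, and EB eCLIP-1 held a peak of 19 tags on the same region with its summit in a small RNA gene. Snhg12 held 6 tags in embryo eCLIP-2, and its region 9 and 10 in the EB libraries and 46 in the embryo input. Snhg6 held 5 tags in embryo eCLIP-2 and its region 4 in EB eCLIP-2. The pseudogene 2210409E12Rik held 14 and 10 tags in the EB libraries, of which the first matched Elobl at 96.0% identity. Held by both embryo libraries and by no EB library or input were Gm4204, Gm24049 (5 and 5 tags), Gm11280 (5 and 4) and BC085271 (4 and 4). Cct6a, here a record without coding sequence, held 4 tags in embryo eCLIP-2 and 8 in EB eCLIP-2 in 1 region.

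By gene list, members were found in 5 of 20 nuclear and imprinted long noncoding RNAs of the annotation (Malat1, H19, Meg3, Tsix and Firre), in 3 of 19 noncoding hosts of small nucleolar RNAs (Gas5, Snhg12 and Snhg6), in 3 of 11 structural RNAs (mt-Rnr1, Rmrp and Rpph1), in 1 of 26 developmental long noncoding RNAs (Lncenc1) and in 0 of 9 noncoding hosts of microRNAs. The background was 77 of 29031 genes with a noncoding transcript, or 0.265%, most of which need not be expressed here. The lists were written with earlier results of these data known, so their shares cannot be read as enrichment over this background. The inputs held peaks in 2, 3, 4, 0 and 0 genes of these lists. Of the 77 eCLIP genes, 13 (16.9%) also held a noncoding exon peak in an input, which were 20.0% of the 65 input genes.

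The share of noncoding exon peaks did not pass the test of a difference between eCLIP and the input of the same label. In the embryo it was 1.66% (95% exact interval 1.06 to 2.45) and 2.14% (1.43 to 3.08), and in the EBs 3.03% (2.15 to 4.13) and 1.99% (1.42 to 2.72). The inputs stood at 1.51% (embryo, 1.09 to 2.04) and 1.90% (EB, 1.35 to 2.60). The Fisher exact test of each eCLIP library against the input of its label gave adjusted p = 0.761, 0.268, 0.103 and 0.908 (two-sided, Benjamini-Hochberg over 12 tests). With the inputs exchanged, the higher share of EB eCLIP-1 (3.03% against 1.51%) passed the same Fisher exact test, with adjusted p = 0.00847, and the other 3 did not, at 0.703, 0.703 and 0.318. These tests compare libraries, not conditions. The contrast to coding exons was large: 38.8, 36.4, 29.8 and 37.9% of eCLIP peaks lay in coding exons, against 2.27 and 4.35% of input peaks.

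Noncoding exon peaks lay on a peak of the other replicate more often than other peaks in each library, past the test in 1 of 4. The other replicate overlapped 13 of 24 peaks (54.2%) in embryo eCLIP-1, where the share over all peaks was 42.6%, and 17 of 28 (60.7%) in embryo eCLIP-2, where it was 47.2%. In the EBs it was 22 of 38 (57.9%) in EB eCLIP-1 beside 51.8% of all peaks, and 23 of 39 (59.0%) in EB eCLIP-2 beside 36.8%. Against the other peaks of the same library, the difference passed the Fisher exact test in EB eCLIP-2 alone (adjusted p = 0.0193; the others 0.399, 0.271 and 0.613). Tags and overlap went together: 50 of 55 members with at least 10 tags lay on a peak of the other replicate (90.9%; other peaks 85.8%), and 25 of 74 with fewer (33.8%; other peaks 29.2%).

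Overlap with an input peak was more frequent than among other peaks in all 4 libraries, past the test in 3. A peak of the input of the same label overlapped 10 of 24 members (41.7%) in embryo eCLIP-1, against 16.0% of all its peaks, 12 of 28 (42.9%) in embryo eCLIP-2, against 18.3%, 10 of 38 (26.3%) in EB eCLIP-1, against 16.7%, and 14 of 39 (35.9%) in EB eCLIP-2, against 12.1%. The Fisher exact test against the other peaks of the library gave adjusted p = 0.00899 in both embryo libraries, 0.241 and 0.00107 in the EB libraries. Among peaks above 5-fold the embryo call was lost, with a mean share of 35.9% and a larger Fisher exact adjusted p of 0.0597. With the inputs exchanged, the mean share was 44.3% in the embryo and 29.8% in the EBs, in place of 42.3% and 31.1%. With the inputs exchanged, adjusted p by the same Fisher exact test was 0.00633, 0.00871, 0.318 and 0.00633. Either input overlapped 19.7, 22.8, 20.7 and 15.4% of all peaks of the libraries. The excess lay in the peaks with at least 10 tags, of which either input overlapped 42 of 55 members (76.4%) and 47.8% of other peaks. Below 10 tags it overlapped 6 of 74 members (8.11%) and 9.14% of other peaks. By gene type, without a test, either input overlapped 18 of 22 peaks of miRNA type, all 4 of mt-Rnr1 and of Rpph1, 8 of 11 TEC peaks, 14 of 39 long noncoding peaks and 0 of 49 pseudogene peaks.

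**Figure D4:**
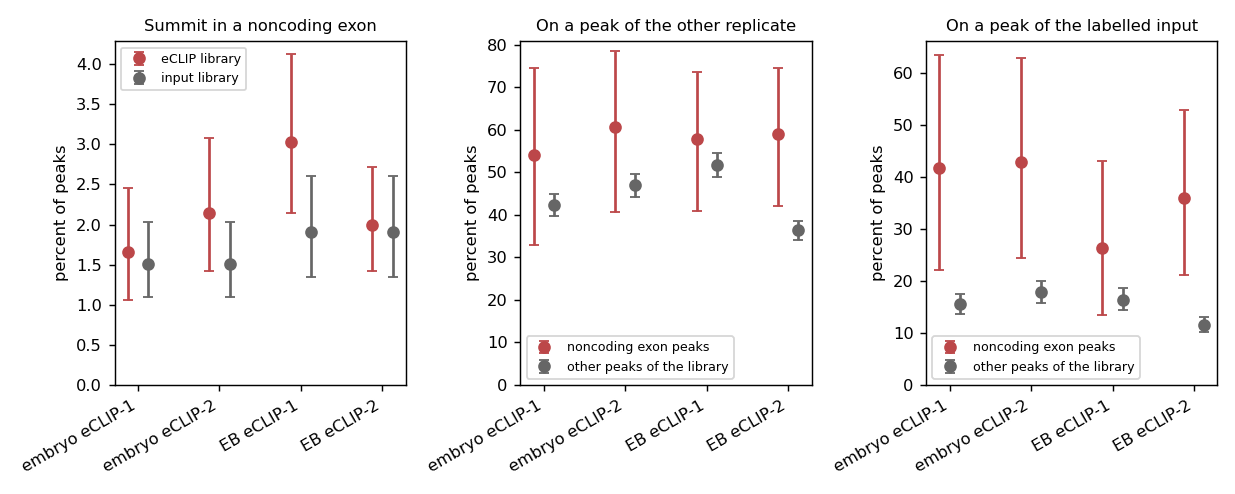
Percent of peaks with the summit in a noncoding exon in eCLIP and input libraries (left), and percent of noncoding exon peaks and of the other peaks of the same library that lie on a peak of the other replicate (middle) or of the input of the same label (right). Bars are 95% exact intervals, which cover counting error alone. The eCLIP and input intervals overlap on the left, and the intervals of noncoding exon and other peaks stand apart in 3 of 4 pairs on the right.

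Of the 82 merged regions that hold a member, 42 were held by 1 eCLIP library, 21 by 2, 4 by 3 and 15 by all 4 (18.3%, beside 8.84% of all 3856 eCLIP regions, of which 29.6% were held by at least 2). All 15 had a peak in either input, against 58.7% of the 341 regions of all classes held by all 4 libraries. Both embryo libraries held 21 member regions, of which 5 had no peak in either input, and both EB libraries 28, of which 12 had none. Over all classes, 371 of 618 regions held by both embryo libraries had no peak in either input. For the EBs it was 417 of 653, so regions free of input were the smaller share among the members in both tissues. With a score of at least 100 the 5 and 12 fell to 2 and 1, and without pseudogenes and mitochondrial RNA to 3 and 3. Of all regions 16.0 and 16.9% were held by both libraries of the embryo and of the EBs. Held by both libraries of 1 tissue and by neither of the other were 4 of the 82 regions in the embryo (4.88%) and 11 in the EBs (13.4%). Over all classes it was 159 (4.12%) and 225 (5.84%) of the 3856 regions, so the embryo share was near that of all regions.

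In 162 regions with a peak in all 6 libraries the eCLIP level could be set beside the input level, as a description with no test. For Malat1 the mean of the 2 eCLIP libraries over the input, both in tags per 100000, was 137 in the embryo and 256 in the EBs. With the inputs exchanged the values were 222 and 158, so that the order of the tissues turned. The median of this ratio over the 162 regions was 36.6 and 23.6, or 38.3 and 21.2 with the inputs exchanged. The inputs are far deeper than the eCLIP libraries, and at most 1 tag was kept per position. How much of these ratios comes from depth was not tested. The eCLIP peaks of Malat1 are longer than its input peaks, with means of 6755 and 6474 bases against 2368 (embryo input) and 2504 (EB input). Per kb of peak, a scale which like the exchange was added once the data had been seen, the ratio was 47.9 and 98.2, or 82.1 and 57.3 with the inputs exchanged, and the median over the 162 regions 49.6 and 46.1, or 57.9 and 39.3. Rmrp stood at 41.0 and 38.1 per kb with the inputs as labelled and Rpph1 at 27.6 and 21.4, both below the medians of 49.6 and 46.1. With the inputs exchanged Rmrp stood at 35.4 and 44.1 and Rpph1 at 17.9 and 33.0. Rmrp in the EBs was then above the median of 39.3. The 15 noncoding exon regions had medians of 47.7 and 53.4 per kb, or 78.3 and 41.9 with the inputs exchanged. In the embryo they thus moved from below to above the median of the 162 regions.

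Around the summits the words searched were counted in the members and in all peaks in genes. Within 200 bases on the strand of the gene, GAAGAA, the word GAAGAG, the word GAGGAA or the word GAGGAG occurred in 59 of 129 members (45.7%), in 41.2% of all 5185 eCLIP peaks in genes, in 29 of 80 input members (36.3%) and in 34.9% of all input peaks in genes. Pseudogene members held them in 32 of 49 windows (65.3%), beside 56.8% of coding exon peaks, and long noncoding members in 16 of 39 (41.0%), among them all 4 summits of Malat1 and all 3 of H19. GCAGCA occurred in 7 members (5.43%, against 11.3% of eCLIP peaks in genes), among them 2 Malat1 summits, and CTCCTCC in 3 (2.33%, against 6.04%). Neither Lncenc1 window held any of these words. The words can overlap each other, only the strand of the gene was searched, and a match is a description, not a site.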

How the data were processed

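Per the study's methods and labels, the authors trimmed reads (cutadapt), removed those matching mouse repeats, mapped what was left with STAR 2.5.2b (GRCm38) and called peaks with MACS 1.4.2; the methods give both a limit of several places per read and unique mapping. The deposited lists give, per peak, a count of tags, a score (−10 times log10 of the caller's p-value), a fold enrichment (a ratio whose reference is not settled, since the methods name a control and the headers none) and a summit. They hold far fewer peaks than the study describes, at 1449, 1309, 1256 and 1955 in the eCLIP libraries, and were used as they are. All shares and overlaps given here are those of these shorter lists. From these, every peak was classed by its summit on Gencode M21 basic. Of 10748 peaks, 10676 lay on assembled chromosomes, and all of these ended inside them. Peaks of the 4 eCLIP lists that overlapped by at least 1 base were merged into regions. Shares were compared with 12 two-sided Fisher exact tests, with Benjamini-Hochberg adjustment over the 12 and 95% Clopper-Pearson intervals (scipy 1.17.1). These cover counting error alone. Summit windows of 100 bases were matched with BLAST+ 2.17.0 to Gencode M21 transcripts and to GRCm38.p6 (RefSeq). Code was tested on simulated peak lists. Replicates are separate libraries per the labels. The members and lists were chosen with earlier results of these data known. Genes were named by rule: the 12 with the most tags, the 6 with the most regions held by at least 2 libraries, per tissue the 5 with the most tags in regions of both replicates without an input peak and the 4 held by 1 tissue only, up to 4 of each gene list, and those with most input peaks. Other genes, among them Gm37194, Platr14, Firre, Mir6240, Gm25911 and the matched pseudogenes with their mRNAs, were named after their values were seen, and the split at 10 tags was chosen then too.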

Additional observations from a re-analysis of the deposited data

How the results depend on the processing

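Values here are means of the 2 eCLIP libraries of a tissue, with the larger adjusted p of the 2 Fisher exact tests. The share of noncoding exon peaks, 1.90% (embryo) and 2.51% (EB), turned from above to below the input with a score of at least 100 (3.08% against 3.47%, and 3.38% against 3.40%), in the EBs with pseudogenes and mitochondrial RNA left out (1.29% against 1.75%), and, as a choice made after seeing the data, in the embryo with the inputs exchanged (1.90% against 1.90%). Overlap with an input was lost as a call in the embryo above 5-fold (35.9%, Fisher exact adjusted p = 0.0597) and gained in the EBs without pseudogenes and mitochondrial RNA (54.1%). Without one library, input overlap ranged from 41.7 to 42.9% in the embryo and from 26.3 to 35.9% in the EBs, and replicate overlap from 54.2 to 60.7% and from 57.9 to 59.0%. The share itself ranged from 1.66 to 2.14% and from 1.99 to 3.03%. Without EB eCLIP-1 both EB overlaps passed the Fisher exact test (input 35.9%, adjusted p = 0.000800; replicate 59.0%, adjusted p = 0.0145). The 5 embryo and 12 EB regions held by both replicates and no input fell to 2 and 1 with a score of at least 100 and to 3 and 3 without pseudogenes and mitochondrial RNA. These causes were not tested. The other alternatives kept the direction and the call of these means, although with the inputs exchanged EB eCLIP-1 alone passed the test of its share. Summits moved by 62 bases left 15 of 24, 20 of 28 and 29 of 38 members in the class in embryo eCLIP-1, embryo eCLIP-2 and EB eCLIP-1. No paired analysis was possible because no test across libraries was made. Depth limits the small peaks, which hold 3 or 4 tags.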
